A study of Homo sapiens with 6 samples.

Results

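The genes described here encode the aminoacyl-tRNA synthetases and the few proteins annotated with them. They were chosen as the rows of the deposited count table whose gene description names a tRNA synthetase, leaving out pseudogenes and antisense genes and rows without a symbol. The text matched 46 rows, 5 of which were pseudogenes with at most 32 counts in any library, and 41 genes of 30947 remained. Of these, 19 encode cytosolic enzymes, 2 (GARS1 and KARS1) encode both the cytosolic and the mitochondrial form, 17 encode mitochondrial enzymes and 3 (AIMP1, AIMP2 and AARSD1) encode no synthetase. The rule itself reads the description and symbol and no measured value.

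An aminoacyl-tRNA synthetase joins one amino acid to its tRNAs, and the charged tRNA then brings that amino acid to the ribosome. Most amino acids have separate enzymes for the cytosol and for mitochondria, both encoded in the nucleus. In animal cells several cytosolic synthetases sit together in the multisynthetase complex, held by scaffold proteins that include AIMP1 and AIMP2. Many cytosolic synthetase genes are known targets of ATF4, the transcription factor that is made when amino acids run short or proteins misfold.

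RNA sequencing was done on Cal27, an established human oral squamous cell carcinoma line, as 3 control and 3 DAZAP1 knockdown libraries of total RNA. DAZAP1 is an RNA-binding protein with known roles in splicing and translation, and it was lowered with a lentivirus. The labels call the control an empty vector in one place and a negative control sequence in another, and the hairpin sequence is not given in the sources used here. The labels do not say that replicates came from separate cultures, so p-values measure the spread between these libraries, which may be technical. Values are given as CPM, read counts per unit of library depth, on library totals scaled by the trimmed mean of M-values. Fold changes are of the knockdown against the control, and a gene was called at an adjusted p under 0.05 in edgeR's quasi-likelihood test with Benjamini-Hochberg adjustment over 15374 genes. Positions are those of the deposited table, whose build the submitters' processing notes give as GRCh38.p13.

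The library totals were 16333542 to 18955230 counts, of which the 41 genes took 0.505 to 0.507% in control libraries and 0.509 to 0.512% in knockdown libraries. DAZAP1 (chr19:1407569-1435687) was at 262, 278 and 257 CPM in the control and 73.6, 77.8 and 67.5 CPM in the knockdown, 3.64-fold lower, with an adjusted p of 1.67e-39 in edgeR's test. Squamous epithelial markers summed to 3729 to 3873 CPM per control library and 4328 to 4385 CPM per knockdown library, with KRT5, TP63 and CDH1 all detected. No leukocyte marker passed 44 counts in any library. Of 9 listed stromal and endothelial markers, 7 were in the table, and they summed to 25.9 to 29.9 CPM per control library and 65.9 to 70.5 CPM per knockdown library, most of it CDH5. The part of these markers in the synthetase values was not tested. In a bulk sample, fewer cells of one type and less RNA per cell cannot be told apart.

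Of the 41 genes, 40 passed the filter on low counts. Of these, 11 were higher in the knockdown and 14 lower, or 27.5% and 35.0%, beside 26.9% higher and 27.4% lower over all genes tested. The share called higher was thus near that of all genes, and calls ran in both directions. The median log2 fold change of the 40 genes was -0.001, beside 0.002 over all genes tested, and the values ran from -0.79 for VARS1 to 0.49 for CARS1. The groups did not overlap for 12 genes that were higher and 16 that were lower, beside 29.5% and 29.4% of all genes. The summed level of all 41 genes was 5131 ± 9.40 CPM (SD, n = 3) in the control and 5053 ± 15.6 CPM in the knockdown, or 98.5% of the control.

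Most of the 21 cytosolic and dual-site enzymes were called, in both directions. Of the 21, 10 were higher (47.6%) and 8 lower (38.1%), and together 85.7% were called, beside 54.2% of all genes tested. With a log2 change of at least 0.2 required as well, 5 of the 21 were higher and 8 lower. The shares past that size were 22.5% and 21.4% of all genes tested. The summed level of the 21 enzymes stayed close, at 4216 ± 11.2 CPM in the control and 4200 ± 13.2 CPM in the knockdown (SD, n = 3). Of the 16 mitochondrial enzymes tested, 1 was higher (6.25%) and 5 lower (31.2%). The mitochondrial sum was 764 ± 2.24 CPM in the control and 716 ± 1.07 CPM in the knockdown. Within that sum CARS2 alone went from 118 ± 3.29 to 81.5 ± 2.58 CPM. The knockdown sum was 93.8% of the control in CPM and 97.6% in the deposited FPKM. The difference between the classes was not tested. The genes are not equally measured, since most mitochondrial enzymes had fewer counts than most cytosolic ones.

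**Figure D1:**
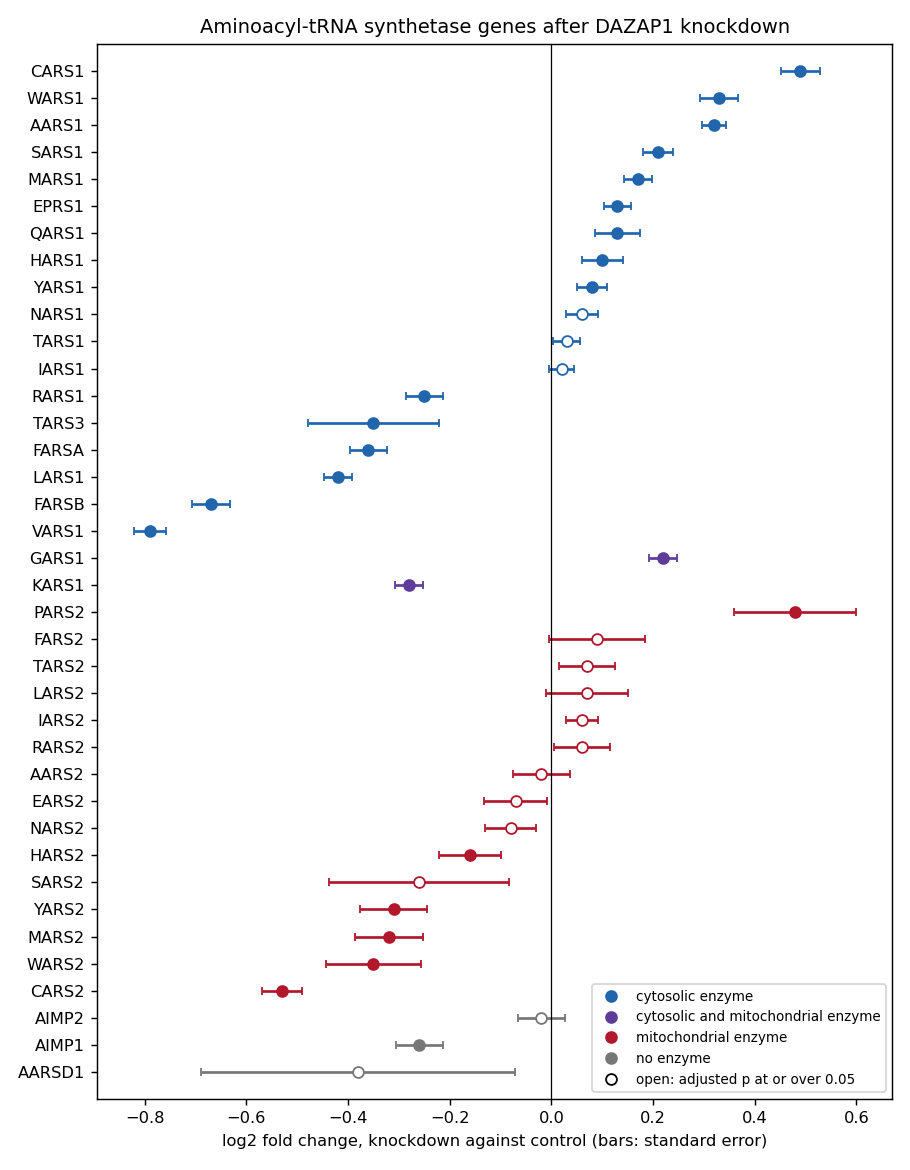
The log2 fold change of the knockdown against the control is plotted for the tested genes reported here, with standard errors as bars, coloured by where the enzyme works; filled points have an adjusted p under 0.05. Cytosolic enzymes run from -0.79 (VARS1) to 0.49 (CARS1), and most mitochondrial enzymes lie near 0 or below it.

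Among the cytosolic enzymes that rose, CARS1, the cysteinyl-tRNA synthetase (chr11:3000922-3057613), moved furthest. It was at 94.2, 85.3 and 88.0 CPM in the control and 128, 126 and 123 CPM in the knockdown. Every knockdown library lay above every control library, and the log2 fold change was 0.49 ± 0.04 (SE, n = 3 per group, adjusted p = 1.33e-18 in edgeR's test). WARS1, the tryptophanyl enzyme (chr14:100333790-100376805), is also known as a gene induced by interferon-gamma. It rose from 94.7, 94.9 and 96.3 CPM to 116, 120 and 124 CPM, a log2 fold change of 0.33 ± 0.04 (adjusted p = 9.11e-12). Its control libraries were close together and its knockdown libraries were all higher.

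AARS1, the alanyl enzyme (chr16:70251983-70289707), was the most highly counted of the 41 genes. It stood at 421, 422 and 419 CPM in the control and at 523, 522 and 530 CPM in the knockdown. The libraries of each group agreed closely, and the log2 fold change was 0.32 ± 0.02 (adjusted p = 4.11e-20). GARS1, the glycyl enzyme that serves both compartments (chr7:30580533-30634033), was at 273, 278 and 294 CPM and then at 326, 333 and 327 CPM, a log2 fold change of 0.22 ± 0.03 (adjusted p = 5.05e-11). SARS1, the seryl enzyme (chr1:109213918-109238182), was at 205, 201 and 213 CPM and then at 239, 241 and 235 CPM, a log2 fold change of 0.21 ± 0.03 (adjusted p = 2.38e-09). Neither gene had overlapping groups.

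MARS1, for methionine, and EPRS1, which charges both glutamate and proline tRNAs, rose by less, with log2 fold changes of 0.17 and 0.13. The tail of MARS1 shares 982 bp with DDIT3 on the opposite strand, and since the strandedness of the counts is not given in the sources used here, reads in shared bases cannot be told apart. DDIT3 itself had 417 to 479 counts in every library of both groups.

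**Figure D2:**
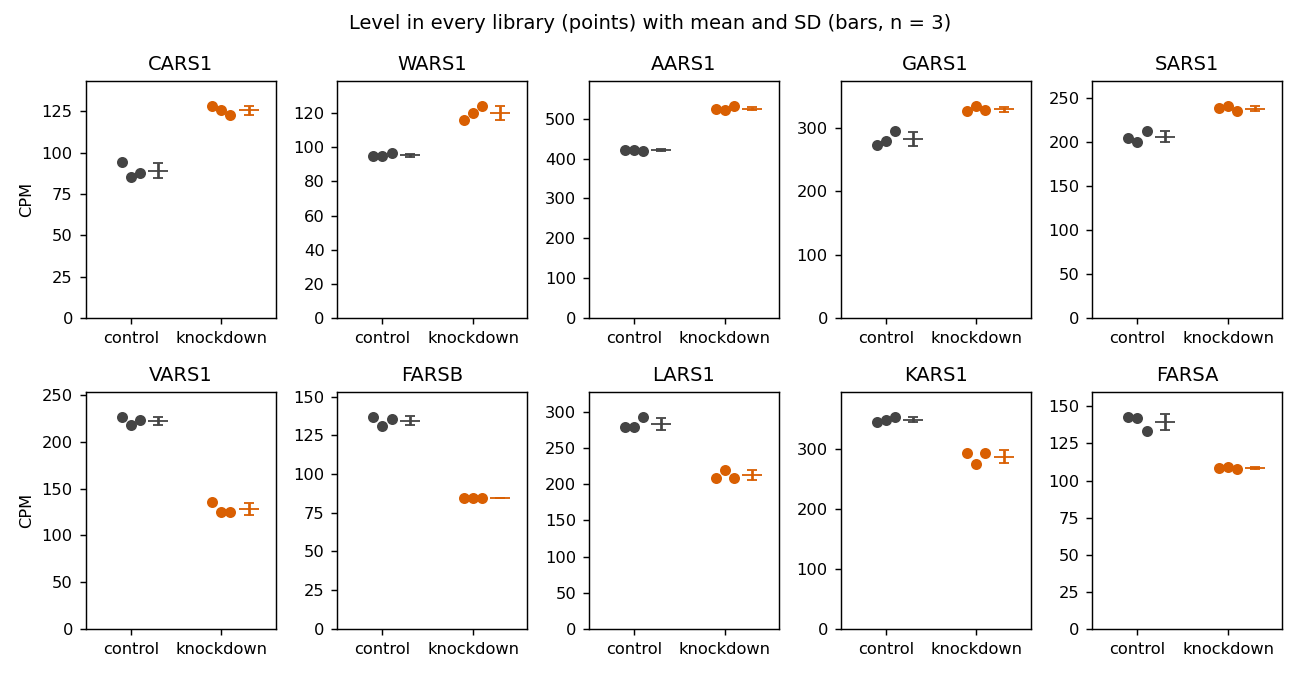
Each point is 1 library and shows the level in CPM on an axis that starts at 0; the bars give the mean and SD of 3 libraries. The upper row holds the 5 cytosolic or dual-site genes with the smallest adjusted p among those that rose and the lower row 5 of those that fell, and the groups overlap in none of them.

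The promoters of some of these genes carry the word TGATGNAA, the shared core of the element that ATF4 binds with C/EBP partners. RefSeq promoter sequences (GRCh38.p14, 250 bases before to 50 bases after the RefSeq start) were found for 33 of the 41 genes. The RefSeq start can differ from the gene start of the deposited table. For some genes, among them MARS1, GARS1 and CARS2, the whole region lies inside the gene as the table bounds it. The word was searched on both strands and was present in 6 of the 16 cytosolic and dual-site promoters (37.5%), in 1 of the 14 mitochondrial ones, YARS2, in 3.67% of the 27305 promoters of the table and in 1.7% of the 10920 promoters of genes tested. In the cytosolic promoters all of them had the form TGATGCAA, which 0.923% of all promoters and 0.476% of those of genes tested hold. Of the 6 genes, AARS1, CARS1 and MARS1 rose and IARS1, NARS1 and TARS1 were not called. Of the 10 cytosolic or dual-site promoters without the word, 6 belonged to genes that rose and 4 to genes that fell, and the median log2 fold change was 0.11 with the word and 0.11 without it. Here the 3 promoters of the genes that rose and that of IARS1 are shown, with the matches in capitals. On the strand of these genes the word reads TTGCATCA, the reverse complement. Its first base lies at -187, -2, -4 and -13 from the RefSeq start in AARS1, CARS1, MARS1 and IARS1. IARS1 also holds the E-box CACGTG, a palindrome, at -186. A match describes these bases and does not show that a factor binds there. The regions are chr16:70289457-70289756 on the minus strand for AARS1, chr11:3057374-3057673 on the minus strand for CARS1, chr12:57487818-57488117 on the plus strand for MARS1 and chr9:92293648-92293947 on the minus strand for IARS1.
AARS1: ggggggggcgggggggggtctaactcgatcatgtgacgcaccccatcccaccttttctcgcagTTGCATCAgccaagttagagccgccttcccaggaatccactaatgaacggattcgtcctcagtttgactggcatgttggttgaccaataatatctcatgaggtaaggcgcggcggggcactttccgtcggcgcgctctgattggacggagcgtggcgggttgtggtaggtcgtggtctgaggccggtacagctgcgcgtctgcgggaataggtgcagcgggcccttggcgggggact
CARS1: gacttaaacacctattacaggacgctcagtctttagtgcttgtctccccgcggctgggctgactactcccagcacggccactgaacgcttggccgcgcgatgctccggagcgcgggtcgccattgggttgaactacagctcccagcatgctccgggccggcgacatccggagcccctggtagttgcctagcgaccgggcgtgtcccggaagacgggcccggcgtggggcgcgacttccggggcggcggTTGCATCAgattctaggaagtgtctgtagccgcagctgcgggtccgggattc
MARS1: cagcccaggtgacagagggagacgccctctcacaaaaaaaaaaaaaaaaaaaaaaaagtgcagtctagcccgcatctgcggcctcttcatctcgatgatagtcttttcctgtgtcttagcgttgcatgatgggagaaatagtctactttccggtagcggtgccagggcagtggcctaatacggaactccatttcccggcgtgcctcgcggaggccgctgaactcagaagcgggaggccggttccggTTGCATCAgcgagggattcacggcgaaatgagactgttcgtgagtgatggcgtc
IARS1: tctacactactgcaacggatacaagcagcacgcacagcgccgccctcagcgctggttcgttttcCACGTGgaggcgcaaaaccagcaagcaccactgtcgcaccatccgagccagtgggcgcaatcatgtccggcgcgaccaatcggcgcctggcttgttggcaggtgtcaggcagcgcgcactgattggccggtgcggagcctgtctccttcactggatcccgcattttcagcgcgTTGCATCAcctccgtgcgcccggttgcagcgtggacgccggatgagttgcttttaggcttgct
The CACGTG word was in 4 of the 33 promoters (12.1%), namely EARS2, IARS1, CARS2 and MARS2, beside 7.43% of all promoters and 10.1% of those of genes tested, which is near the share of the members.

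The cytosolic enzyme that fell furthest was VARS1, for valine (chr6:31777518-31795752), which in animal cells is bound to the elongation factor complex that delivers charged tRNAs. It was at 226, 218 and 224 CPM in the control and 136, 125 and 125 CPM in the knockdown. The groups lay far apart, with a log2 fold change of -0.79 ± 0.03 (SE, n = 3 per group, adjusted p = 5.99e-34 in edgeR's test). Next came FARSB, the beta subunit of the phenylalanyl enzyme (chr2:222566899-222656092), at 137, 131 and 136 CPM and then at 84.4, 84.5 and 84.5 CPM. Its log2 fold change was -0.67 ± 0.04 (adjusted p = 3.28e-26), and its 3 knockdown libraries were almost equal.

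FARSA, the alpha subunit of the same enzyme (chr19:12922479-12934037), fell too. It was at 143, 142 and 134 CPM and then at 108, 109 and 108 CPM, a log2 fold change of -0.36 ± 0.04 (adjusted p = 2.63e-14). Both subunits of this enzyme were thus lower in every knockdown library, FARSB by 37.2% and FARSA by 22.3%. The difference between the subunits was not tested.

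LARS1, the leucyl enzyme, known also as a leucine sensor upstream of mTORC1 (chr5:146110566-146182696), was at 279, 279 and 293 CPM and then at 208, 220 and 208 CPM, a log2 fold change of -0.42 ± 0.03 (adjusted p = 1.24e-21 in edgeR's test). All its knockdown libraries were below all control libraries. KARS1, the lysyl enzyme of cytosol and mitochondria (chr16:75627474-75648643), was at 344, 347 and 352 CPM and then at 293, 274 and 293 CPM, a log2 fold change of -0.28 ± 0.03 (adjusted p = 6.26e-15). KARS1 shares 871 bp with TERF2IP on the opposite strand, which had 989 to 1138 counts per control library and 727 to 757 per knockdown library. RARS1, for arginine, also fell, with a log2 fold change of -0.25 (adjusted p = 1.32e-08).

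TARS3, a paralogue of the threonyl enzyme TARS1, is a weakly expressed gene and its call depended on single libraries. It was at 9.35, 8.50 and 8.46 CPM in the control and 7.27, 6.48 and 6.85 CPM in the knockdown, with a log2 fold change of -0.35 ± 0.13 (adjusted p = 0.0168 in edgeR's test). Without control replicate 1 the log2 fold change was -0.30 (adjusted p = 0.0738), and without knockdown replicate 2 it was -0.31 (adjusted p = 0.0675). Over all alternatives the adjusted p ran from 0.0166 to 0.0738.

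Several cytosolic enzymes lay close to the threshold, and each moved by at most 10%. QARS1, for glutamine, was at 75.6, 70.5 and 74.1 CPM in the control and 81.5, 80.8 and 78.2 CPM in the knockdown, 9.25% higher (adjusted p = 0.011 in edgeR's test). HARS1, for histidine, was at 90.0, 91.5 and 87.8 CPM and then at 96.7, 94.8 and 97.0 CPM, 7.12% higher (adjusted p = 0.0299). Neither gene had overlapping groups. YARS1, for tyrosine, was at 195, 201 and 198 CPM and then at 215, 210 and 202 CPM, 5.78% higher (adjusted p = 0.0165), and its lowest knockdown library came close to its highest control library.

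The calls of these genes did not hold under every alternative. The adjusted p of QARS1 was 0.0757 without control replicate 2 and 0.0528 without knockdown replicate 1. That of HARS1 was 0.0765 in DESeq2 and 0.0581, 0.111, 0.0782 and 0.0836 without control replicates 1 and 3 and knockdown replicates 1 and 3. That of YARS1 was 0.0555 in DESeq2, 0.0812 without control replicate 1 and 0.135 without knockdown replicate 1. In each of these the direction was still upward.

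The 3 cytosolic enzymes that were not called all leaned upward. NARS1, for asparagine, was at 179, 178 and 177 CPM in the control and 177, 188 and 189 CPM in the knockdown (adjusted p = 0.126 in edgeR's test), so that 1 knockdown library lay among the controls. TARS1, for threonine, was at 272, 283 and 278 CPM and then at 287, 275 and 292 CPM (adjusted p = 0.303). IARS1, for isoleucine, was at 407, 394 and 383 CPM and then at 400, 407 and 395 CPM (adjusted p = 0.475), with overlapping groups. NARS1 passed the threshold without knockdown replicate 1 (log2 fold change 0.08, adjusted p = 0.034), and in the 3 limma tests (adjusted p = 0.0347 to 0.0396). NARS1, TARS1 and IARS1 all passed with upper-quartile scaling and with library totals alone.

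Members of the multisynthetase complex moved in both directions. Of its 10 members among the 41 genes, 3 were higher (EPRS1, MARS1 and QARS1), 5 lower (among them LARS1, KARS1, RARS1 and AIMP1) and 2 not called (IARS1 and AIMP2), with a median log2 fold change of -0.13. These were 30% and 50%, beside 26.9% and 27.4% over all genes. Its 8 enzymes summed to 1874 ± 7.58 CPM in the control and 1759 ± 8.33 CPM in the knockdown (SD, n = 3). The 13 cytosolic and dual-site enzymes outside the complex summed to 2342 ± 9.70 and 2441 ± 5.04 CPM, with 7 higher and 4 lower (53.8% and 30.8%). Past a log2 change of 0.2, 0 of 8 complex enzymes were called higher and 4 lower, beside 22.5% and 21.4% of all genes tested. None of the 3 complex enzymes that rose passed that size, and all 4 that fell did. Among all genes called, 3452 of the 4131 higher and 3297 of the 4208 lower passed it. The difference between enzymes in and outside the complex was not tested.

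Of the scaffold proteins, AIMP1 (chr4:106315544-106349456), which is also cut to a secreted cytokine, was at 76.3, 72.9 and 74.3 CPM in the control and 61.0, 61.5 and 63.9 CPM in the knockdown. The groups did not overlap, and the log2 fold change was -0.26 ± 0.05 (adjusted p = 1.21e-06 in edgeR's test). AIMP2 (chr7:6009255-6023834) was at 74.6, 79.3 and 71.1 CPM and then at 77.4, 70.4 and 73.5 CPM, with overlapping groups (adjusted p = 0.69). The third scaffold gene of the complex, EEF1E1, is described as an elongation factor in the table and so is no member of the 41. It fell from 20.5 ± 2.51 to 16.5 ± 1.97 CPM (SD, n = 3), a log2 fold change of -0.32 (adjusted p = 0.00275). AARSD1, which resembles the editing part of the alanyl enzyme (chr17:42950526-42964498), was near the limit of counting at 1.64, 1.76 and 1.66 CPM and then at 1.22, 1.52 and 1.15 CPM. Its groups did not overlap, but its adjusted p was 0.31, and the read-through gene PTGES3L-AARSD1 covers it completely on the same strand.

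The synthetase genes can also be split by whether they are on a list of ATF4 targets. Like all lists here, it was chosen with earlier results of these data known. Of the 13 listed, 8 were higher, 2 lower (VARS1 and LARS1) and 3 not called, and the median log2 fold change was 0.13. The shares were 61.5% higher and 15.4% lower, beside 26.9% and 27.4% over all genes. Of the 8 cytosolic and dual-site enzymes not listed, 2 were higher (HARS1 and QARS1) and 6 lower, beside the same shares over all genes. Their median was -0.32, and the difference between listed and not listed enzymes was not tested. Among 34 other genes of the ATF4 response, 25 were higher and 4 lower, beside 26.9% and 27.4% over all genes, with a median of 0.61. ATF4 itself rose from 338 ± 12.0 to 478 ± 8.50 CPM (SD, n = 3), a log2 fold change of 0.50 (adjusted p = 1.22e-28 in edgeR's test). SLC38A2, an amino acid transporter, rose by 0.94 on the log2 scale, GDF15, a stress-induced cytokine, by 1.36, and DDIT4, an inhibitor of mTORC1, by 0.84. The transcription factor ATF3 fell by 0.67, CEBPB by 0.38 and the arginine transporter SLC7A1 by 0.18. The median of the listed synthetases lay below that of the other listed genes, and the difference was not tested. All 10 listed genes of the interferon-gamma response were higher, with a median of 0.51, among them TAP1 with a log2 fold change of 0.87 and IDO1, which degrades tryptophan, with 3.50. Those values stand beside the rise of WARS1, and their part in it was not tested.

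The 2 structural classes of synthetase, which differ in the fold of the catalytic domain, each held genes called in both directions. Of the 9 cytosolic class I enzymes 5 were higher and 3 lower, and of the 11 cytosolic and dual-site class II enzymes 4 were higher and 5 lower, or 55.6% and 33.3% for class I and 36.4% and 45.5% for class II, beside 26.9% and 27.4% over all genes. EPRS1 carries one domain of each class and was left out of both.

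Among the mitochondrial enzymes, CARS2, for cysteine (chr13:110641412-110713603), moved furthest. It was at 116, 121 and 115 CPM in the control and 79.1, 84.2 and 81.1 CPM in the knockdown. The groups were far apart, and the log2 fold change was -0.53 ± 0.04 (SE, n = 3 per group, adjusted p = 1.11e-19 in edgeR's test). CARS2 overlaps ING1 by 868 bp on the opposite strand, and ING1 had 361 to 389 counts per control library and 341 to 431 per knockdown library. MARS2, for methionine (chr2:197705369-197708395), was at 38.1, 39.7 and 36.0 CPM and then at 30.3, 34.0 and 26.5 CPM, a log2 fold change of -0.32 ± 0.07 (adjusted p = 3.66e-05). A second annotated gene covers MARS2 on the same strand, with 1 to 5 counts per library.

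YARS2, for tyrosine (chr12:32727490-32755897), was at 34.3, 35.2 and 37.8 CPM in the control and 29.5, 26.7 and 30.6 CPM in the knockdown. Its log2 fold change was -0.31 ± 0.07 (adjusted p = 5.36e-05 in edgeR's test), and 18161 bp of the gene are shared with DNM1L on the opposite strand. WARS2, for tryptophan, was at 16.2, 17.1 and 18.7 CPM and then at 14.2, 13.4 and 13.1 CPM, a log2 fold change of -0.35 ± 0.09 (adjusted p = 0.000984). Neither gene had overlapping groups. PARS2, for proline (chr1:54756898-54764523), was the only mitochondrial enzyme called higher in edgeR's main test. It was at 8.64, 9.36 and 7.02 CPM and then at 11.2, 11.1 and 12.5 CPM, a log2 fold change of 0.48 ± 0.12 (adjusted p = 0.000501), again without overlap.

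HARS2, for histidine (chr5:140691430-140699305), was at 42.4, 38.6 and 37.1 CPM in the control and 34.9, 36.3 and 34.2 CPM in the knockdown. The groups lay side by side without overlap, and the log2 fold change was -0.16 ± 0.06 (adjusted p = 0.0185 in edgeR's test). The call was lost without control replicate 1 (-0.11, adjusted p = 0.171), without knockdown replicate 1 (-0.16, adjusted p = 0.0536) and without knockdown replicate 3 (-0.15, adjusted p = 0.077), and it was lost in DESeq2 (adjusted p = 0.0614), with upper-quartile scaling (0.103), with library totals alone (0.0685) and in the 3 limma tests (0.0867 to 0.0951). These are 9 of the 16 refits. HARS2 shares its last 626 bp with ZMAT2 on the same strand, which had 1606 to 1646 counts per control library and 1237 to 1312 per knockdown library. HARS1 and HARS2 start head to head and share 108 bp.

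The other 10 mitochondrial enzymes tested were not called, and their log2 fold changes ran from -0.26 for SARS2 to 0.09 for FARS2. IARS2, for isoleucine, was at 163, 165 and 170 CPM in the control and 174, 168 and 176 CPM in the knockdown (adjusted p = 0.117 in edgeR's test), with overlap. RARS2, for arginine, was at 42.5, 42.7 and 43.5 CPM and then at 45.2, 45.4 and 43.6 CPM (adjusted p = 0.367), and its groups just failed to overlap. Both were called higher by limma on log2(FPKM + 1), with adjusted p of 0.0311 and 0.0462. Mitochondrial enzymes were thus split 1 higher and 5 lower in the main test, 2 and 4 with upper-quartile scaling or library totals alone and 3 and 4 with limma. SARS2 had only 3.39 to 6.36 CPM in any library, too few to show a change of that size, and without control replicate 2, its highest library, the log2 fold change was -0.04. VARS2 was not tested, with 3, 9 and 5 counts in the control libraries, then 3, 11 and 6 after knockdown. A second annotated gene covers the whole of VARS2 on the same strand and had 1 to 5 counts, so the VARS2 value is uncertain.

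In 18 pairs, a mitochondrial enzyme was set beside its cytosolic partner for the same amino acid. EPRS1 and FARS2 each enter 2 of them. Of single genes, 26.9% of all tested were called higher and 27.4% lower. The shares were 47.6% and 38.1% for cytosolic and dual-site enzymes and 6.25% and 31.2% for mitochondrial ones. How often other pairs of genes are called in opposite directions was not computed. In 5 pairs the mitochondrial gene fell and the cytosolic gene rose (CARS, WARS, MARS, YARS and HARS), and in the main test no tested pair moved the other way about. The count of 5 fell to 3 in DESeq2, without control replicate 1 and without knockdown replicate 1, because YARS1, HARS1 and HARS2 were then not called. It was 4 with upper-quartile scaling, library totals alone or limma, and without control replicate 3 or knockdown replicate 3. In limma 1 pair, RARS1 lower with RARS2 higher, moved the other way. In 1 pair both rose (EPRS1 and PARS2). In 5 pairs the cytosolic gene fell and the mitochondrial gene was not called (among them FARS2 with each of its partners, LARS and RARS), and in 3 the cytosolic gene rose alone (AARS, SARS and EPRS1 with EARS2). In the VARS pair the cytosolic gene fell and VARS2 was not tested. None of the other pairs had both genes lower.

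**Figure D3:**
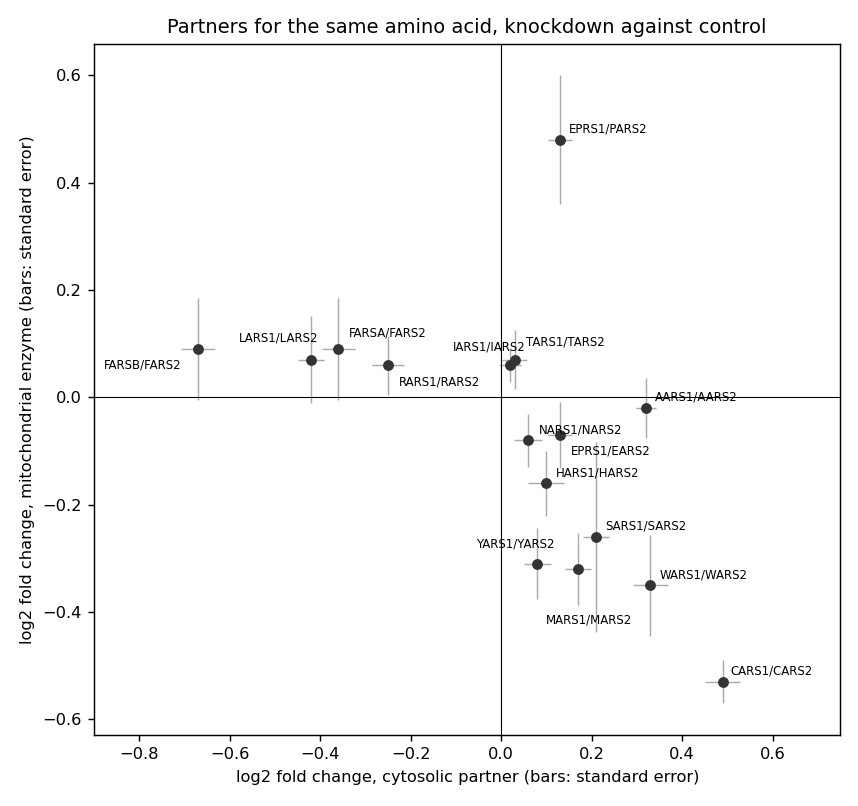
Each point is a pair of enzymes for the same amino acid, with the log2 fold change of the cytosolic gene on the horizontal axis and that of the mitochondrial gene on the vertical axis; bars are standard errors. CARS1 with CARS2 lies furthest to the lower right (0.49 and -0.53), and the pairs whose cytosolic gene fell lie near 0 on the vertical axis.

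The pair for cysteine changed its balance most. The ratio of CARS1 to CARS2 counts was 0.811, 0.703 and 0.763 in the control libraries and 1.62, 1.49 and 1.52 after knockdown, so that the cytosolic gene had the fewer counts in every control library and the more in every knockdown library. The ratio changed 2.03-fold. These counts are not per length. Per kilobase of the longest coding transcript, CARS1 was at 32.3 ± 1.65 CPM and CARS2 at 62.6 ± 1.75 CPM in the control. In the knockdown CARS1 was at 45.5 ± 0.89 and CARS2 at 43.4 ± 1.37 CPM per kilobase, close to each other. The WARS1 to WARS2 ratio went from 5.50 ± 0.35 to 8.83 ± 0.66 (SD, n = 3), and that of MARS1 to MARS2 from 6.82 ± 0.13 to 9.69 ± 1.28. In the other direction, FARSB to FARS2 went from 9.30 ± 0.57 to 5.46 ± 0.14, and LARS1 to LARS2 from 13.3 ± 0.89 to 9.46 ± 0.69. Of the 17 ratios with a tested mitochondrial partner, 9 were higher and 6 lower without overlap between groups, and those of IARS and TARS overlapped. For single genes, 58.9% had no overlap, which is not a matched share, since a ratio can separate when either of its genes moves. No share for ratios of other gene pairs was computed. With 3 libraries against 3, a two-sided exact permutation test of a single ratio cannot give less than 0.1.

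Levels can be compared between genes only per length. Per kilobase of the longest coding transcript in GENCODE release 29, KARS1 was highest in the control at 144 ± 1.65 CPM per kilobase (SD, n = 3), followed by AARS1 at 121 ± 0.54, TARS1 at 110 ± 2.18, SARS1 at 110 ± 3.26 and GARS1 at 107 ± 4.16. TARS1, SARS1 and GARS1 did not differ beyond their spread. In the knockdown AARS1 was highest at 151 ± 1.34 CPM per kilobase, and KARS1 stood at 118 ± 4.65. Among mitochondrial enzymes CARS2 led in the control at 62.6 ± 1.75 CPM per kilobase and IARS2 followed at 46.6 ± 1.00. In the knockdown IARS2 (48.5 ± 1.23) stood above CARS2 (43.4 ± 1.37). SARS2 at 3.04 ± 0.75, TARS3 at 2.43 ± 0.14, AARSD1 at 1.28 ± 0.05 and VARS2 at 0.085 ± 0.045 CPM per kilobase were lowest.

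**Figure D4:**
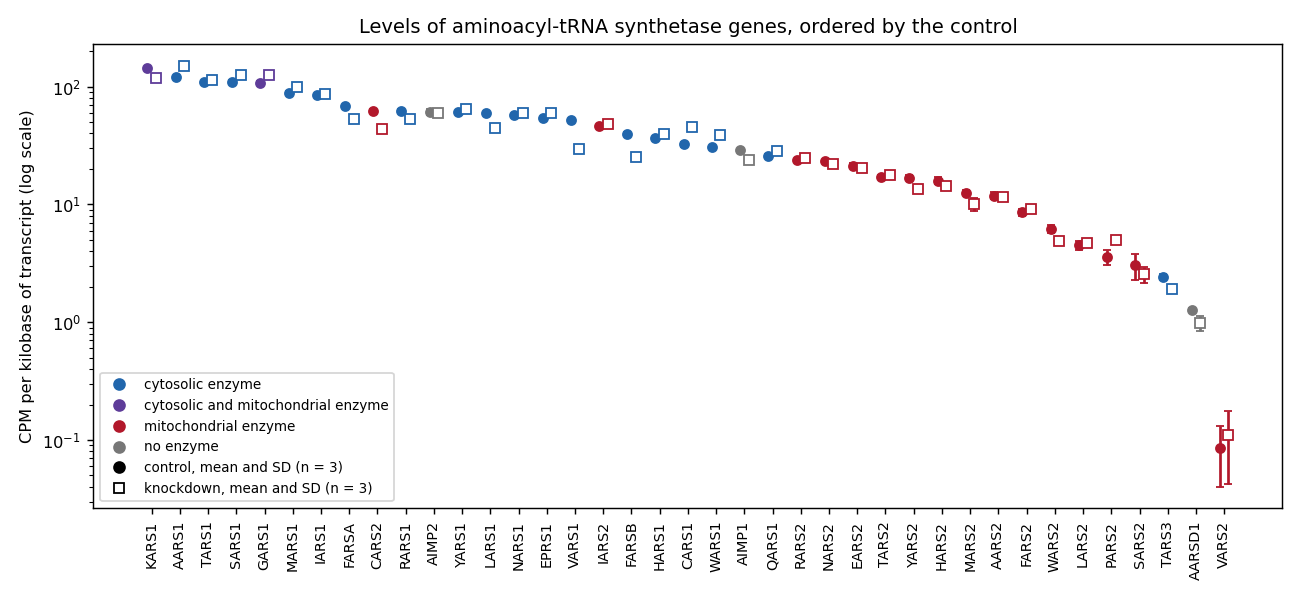
The control (filled) and knockdown (open) levels of the genes reported here are plotted as mean and SD of 3 libraries, in CPM per kilobase of transcript on a log axis, ordered by the control. Cytosolic enzymes fill most of the upper range with KARS1 first, and mitochondrial enzymes most of the lower range, with CARS2 and IARS2 the highest of them.

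The deposited FPKM gave another order, because it rests on a length per gene that is much longer than one transcript for some genes. For IARS1 that length was 22422 bp and for LARS1 20643 bp, beside transcripts of 4656 and 4766 bp. GARS1 ranked 19 by control FPKM and 5 per kilobase of transcript, CARS2 ranked 26 and 9, and KARS1 ranked 1 in both. By FPKM, 15 of the 18 pairs had the cytosolic enzyme at the higher control level, all but those for cysteine, histidine and isoleucine. Per kilobase of transcript it was 17 of 18: HARS1 was at 36.8 and HARS2 at 15.9 CPM per kilobase, IARS1 at 84.7 and IARS2 at 46.6, and only the cysteine pair had the mitochondrial gene higher. The counts of a gene can include reads of its other transcripts, yet here they were divided by the length of 1. Which order is closer to the true levels was not tested. Of the 40 neighbouring pairs in the order of control FPKM, 18 had overlapping ranges.

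FARSB and HARS2 share a word in the 3′ UTR of their longest coding transcript (GENCODE release 29, GRCh38). The words AGATTGT and GATTGTA were looked for because earlier results on these data had drawn attention to them. One or the other was in 3 of the 40 members with a 3′ UTR (7.5%) and in 2074 of the 12310 tested genes with a 3′ UTR (16.8%). All 3 of these members fell in the main test, but the call of HARS2 held in only 8 of 17 fits. The HARS2 site also lies in the 626 bp shared with ZMAT2 on the same strand, where reads of these genes cannot be told apart. Over those 12310 genes, 39.3% of those with a word in the 3′ UTR were called lower and 29.6% of those without. These shares come from the same data that drew attention to the words, so they are no independent support. The length of the 3′ UTR, which raises the odds of holding a word, was not taken into account. AGATTGT also occurs in the DAZAP1 transcript before its 3′ UTR, at chr19:1418244-1418250 on the plus strand. The share of all transcripts that hold the word outside the 3′ UTR was not computed. Since the hairpin is not given in the sources used here, the part of the word in these falls was not tested. The sites are shown with the word in capitals, at chr2:222570585-222570591 on the minus strand for FARSB and chr5:140698838-140698844 on the plus strand for HARS2.
FARSB: gcagtgatcccAGATTGTgccactgccct
HARS2: aagaggtagtgAGATTGTtgctgtgagca
DAZAP1: ggagaagtcgtAGATTGTgttatcatgaa
VARS1, LARS1, FARSA, KARS1 and CARS2 fell without either word in the 3′ UTR.

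In lists of genes that act around the synthetases, calls were more often lower than higher. Of 15 tested genes for other steps of charging, 3 were higher and 8 lower, or 20.0% and 53.3%, beside 26.9% and 27.4% over all genes. EEF1E1 is counted in this list and again among the elongation factors. PTRH2, which frees peptides from stalled tRNAs, fell by 0.41 on the log2 scale, DTD1, which removes D-amino acids from tRNAs, by 0.46, and SEPHS2, which makes the selenium donor for selenocysteine, by 0.20. GATB, a subunit of the mitochondrial enzyme that turns glutamyl-tRNA into glutaminyl-tRNA, rose by 0.43, EEFSEC, the selenocysteine elongation factor, by 0.38 and SECISBP2, its partner, by 0.13. Of 26 genes for tRNA processing and export, 4 were higher and 12 lower, or 15.4% and 46.2%. XPOT, the tRNA export receptor and itself on the ATF4 list, rose by 0.33, TSEN15, of the splicing endonuclease, by 0.20 and POP5, of RNase P, by 0.22. DDX1 and RTCB, of the tRNA ligase complex, each fell by 0.24, and POP1, of RNase P, fell by 0.41.

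Among the tRNA modification enzymes nearly all calls were downward. Of 70 genes, 2 were higher (MOCS3 and METTL6) and 36 lower, or 2.86% and 51.4%, beside 26.9% and 27.4% over all genes, with a median log2 fold change of -0.18. NSUN2, a cytosine methyltransferase, fell by 0.29, QTRT2, a subunit of the queuine transferase, by 0.39 and FTSJ1, a ribose methyltransferase, by 0.47. Of 21 genes of RNA polymerase III and its factors, which transcribe tRNA genes, 2 were higher and 10 lower (9.52% and 47.6%). The catalytic subunit POLR3A fell by 0.47, GTF3C4 by 0.45 and GTF3C2 by 0.34, while MAF1, the repressor of the polymerase, rose by 0.26 and GTF3C3 by 0.21. Of 11 elongation factor genes, 2 were higher and 7 lower (18.2% and 63.6%). EEF1B2, part of the complex that binds the valyl enzyme, fell by 0.35, EIF5A by 0.24 and EEF2 by 0.21. EEF1A1, which carries charged tRNAs to the ribosome, rose by 0.07, and its paralogue EEF1A2 rose from 1.69 ± 0.37 to 6.32 ± 0.36 CPM (SD, n = 3), a log2 fold change of 1.90.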

How the data were processed

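The authors deposited raw counts and FPKM values, 1 table of each, for 6 libraries of Cal27 RNA, made with TRIzol and Illumina protocols per the labels' protocols. The submitters' processing notes name Bowtie and GRCh38.p13, and neither the counter nor the strandedness or annotation release is given in the sources used here. The deposited FPKM values follow from the counts, the library total and 1 length per gene. The table's columns were matched to samples by group prefix and number.

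The raw counts were tested with edgeR 4.0.16 (R 4.3.3): filterByExpr with a minimum count of 10, trimmed mean of M-values scaling (factors of 0.987 to 1.01), the robust quasi-likelihood F test with group as the only term, Benjamini-Hochberg adjustment over 15374 genes and a threshold of 0.05. The biological coefficient of variation was 3.13%. Libraries of one group differed beyond counting noise (chi-square per degree of freedom 1.86 to 2.78), and all were treated as separate libraries. That spread cannot show whether they came from separate cultures. The script was tested on simulated data.

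Alternatives were DESeq2 1.42.0, other scalings and filters, the replicate block, each library left out, an absolute log2 change of at least 0.2, limma 3.58.1 on log2 FPKM values with a pseudocount of 1 or of 0.1, or keeping only genes whose FPKM averaged 1 or more, and, chosen after seeing the data, levels per kilobase of transcript. In RefSeq promoters, text matches were counted. No gene list was tested as a set. Library values are given for the 5 cytosolic or dual-site genes and the 3 mitochondrial genes with the smallest adjusted p in each direction, the non-enzymes and the genes near the threshold or dependent on an alternative. From each other list up to 3 genes in each direction are named by adjusted p. FARSA, WARS2, ATF4 and EEF1E1 were described outside that rule, after their values were seen, and so were the markers KRT5, TP63, CDH1 and CDH5, and the remaining members appear by range or count. The genes and all lists were chosen with earlier results of these data known. A few genes and a site are counted in the totals but not reported here.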

Additional observations from a re-analysis of the deposited data

How the results depend on the processing

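Of the 40 genes tested, 20 were called in the main test and in all 16 refits, 10 were never called and 10 depended on the refit. Of the 20, all but EPRS1 and MARS1 also had an absolute log2 change of at least 0.2. Mitochondrial enzymes called higher numbered 1 in the main test, 2 with upper-quartile scaling and 2 with library totals alone, and 3 in each of the limma tests on FPKM. With a log2 change of at least 0.2 required as well, genes called higher fell to 6 and cytosolic and dual-site enzymes called higher to 5, by construction. The summed level of all genes in the knockdown was 98.6% of the control in FPKM, 96.2% in CPM per kilobase of the authors' length and 98.3% per kilobase of transcript. Apart from these, the cause of the changes was not tested.

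With each library left out in turn, genes called higher numbered 9 to 11 and lower 12 to 14, cytosolic and dual-site enzymes 8 to 10 and 7 to 8, and mitochondrial enzymes 1 and 4 to 5; over all genes the counts were 3716 to 3880 higher and 3900 to 4084 lower. The replicate block gave 11 higher and 14 lower, as without it; same-numbered libraries had correlations of 0.030, -0.033 and -0.032 and so share only a number. Among genes never called, some changed sign. AARS2 (-0.02) was at 0.025 with upper-quartile scaling, 0.012 with library totals, 0.012, 0.014 and 0.012 in the limma tests and 0.018 without control replicate 1, and ran from -0.079 to 0.018 as libraries were left out. AIMP2 (-0.02) was at 0.025, 0.012, 0.011, 0.011 and 0.011 under the same settings, 0.017 without control replicate 2 and 0.009 without knockdown replicate 2, and ran from -0.062 to 0.017. TGATGCAA in place of TGATGNAA was in 6 promoters and not 7. Depth limits VARS2, AARSD1, SARS2 and TARS3, all under 10 CPM in every library, and also PARS2, which was under 10 CPM in the control libraries. The log2 fold change of PARS2 ran from 0.36 to 0.57 over the 16 refits, and it was called in all of them.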
